A study of Mus musculus with 98 samples.

Results

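The proteasome genes of the mouse were followed in single intestinal innate lymphoid cells (ILCs), lymphocytes that carry no T or B cell receptor. They were taken as every gene whose symbol starts with Psm, a letter from a to g and a number, with pseudogene symbols left out, which gave 49 of the 23420 gene symbols measured. By role these are 8 alpha subunits and 7 beta subunits of the standard core (4 structural, 3 catalytic), 3 immunoproteasome subunits (Psmb8, Psmb9, Psmb10), 1 thymus subunit, 6 ATPases and 3 other base proteins of the regulatory particle, 8 lid proteins, 5 alternative caps and inhibitors and 7 assembly factors. The last of the 49, Psmc3ip, is a meiotic recombination protein that shares only the start of the symbol. All 49 have a place in the GRCm38 annotation, spread over 16 chromosomes.

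R9-ILCs were regenerated from pluripotent stem cells and sorted as CD45.2+, GFP+, lineage-negative, CD127+ cells from the gut of Rag2-/-Il2rg-/- recipients, 3 weeks after transplantation. These hosts lack T, B and natural killer cells and their own ILCs. WT-ILCs were sorted as CD45.2+, lineage-negative, CD127+ cells from intestines of C57BL/6 wild-type animals, 8 weeks old. R9 titles come in 2 series, 32 cells without a numeric ending and 35 cells with the ending 1, whose meaning the labels do not state, and 31 WT columns were reduced to 22 cells by joining similar columns. Each sample is 1 cell and no animal is named, so each of the 3 sets counts as 1 sample. No test was possible and the values are set side by side, with the spread over cells.

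The proteasome is the barrel-shaped protease that degrades proteins tagged with ubiquitin. Alpha rings gate the barrel and beta rings cut the substrate, while the regulatory particle binds ubiquitin, removes it and unfolds the substrate with a ring of ATPases. In immune cells and under interferon gamma, the catalytic subunits encoded by Psmb6, Psmb7 and Psmb5 are replaced by those of Psmb9, Psmb10 and Psmb8, a change that favours peptides suited to MHC class I.

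The genes of these partners are placed apart in the genome. Psmb8 (chromosome 17, 34197721 to 34201454, plus strand) and Psmb9 (chromosome 17, 34181987 to 34187764, minus strand) flank the peptide transporter gene Tap1 in the MHC region, Psmb10 lies on chromosome 8 (105935735 to 105938444), Psmb5 on chromosome 14 (54614119 to 54618022), Psmb6 on chromosome 11 (70525367 to 70527858) and Psmb7 on chromosome 2 (38588036 to 38644087). Bases before the RefSeq start (GRCm38.p6) that no annotated exon touches are shown for Psmb5, Psmb6 and the immunoproteasome gene Psmb10. They read 5′ to 3′ on the strand of the gene, with matches to the motifs named below in capitals. They are chr14:54618023-54618245 (minus strand), chr11:70525107-70525356 (plus strand) and chr8:105938445-105938642 (minus strand).
Psmb5: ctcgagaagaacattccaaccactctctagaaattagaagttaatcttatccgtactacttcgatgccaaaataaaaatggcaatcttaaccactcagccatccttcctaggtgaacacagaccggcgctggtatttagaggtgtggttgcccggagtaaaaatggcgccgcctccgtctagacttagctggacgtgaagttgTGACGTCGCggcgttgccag
Psmb6: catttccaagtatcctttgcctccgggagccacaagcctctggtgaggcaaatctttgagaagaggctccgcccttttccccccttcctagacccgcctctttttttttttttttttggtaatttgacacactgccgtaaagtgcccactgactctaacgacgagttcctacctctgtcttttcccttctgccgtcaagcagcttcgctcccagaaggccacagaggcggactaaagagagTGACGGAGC
Psmb10: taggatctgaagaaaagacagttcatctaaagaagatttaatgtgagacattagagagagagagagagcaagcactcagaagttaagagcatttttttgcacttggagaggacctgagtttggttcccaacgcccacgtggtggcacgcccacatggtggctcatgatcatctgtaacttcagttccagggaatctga

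The capitals are the antioxidant response element core TGACNNNGC, the motif bound by the Nrf factors that drive proteasome genes, at position -47 of Psmb5 and -9 of Psmb6. The stretch of Psmb10 holds no capitals. In Psmb8, whose window lies in annotated exons and is not shown, the STAT core TTCNNNGAA was matched by TTCCCAGAA at -97. Windows of 300 bases (250 before and 50 after the start) were found for 41 of the 49 genes, 44 windows in all. TGACNNNGC on either strand was in 13.6% of them and in 12.4% of all 32851 windows. The interferon-stimulated core (GAAA, any 2 bases, then GAAA) was in 11.4% against 3.44%. These were 5 windows, those of Psmb3, Psmd4, Psmd9, Psme1 and Psmg4, and none of Psmb8, Psmb9 or Psmb10. TTCNNNGAA was in 6.82% against 8.30% and the CCAAT box in 34.1% against 37.4%. TTCNNNGAA reads the same on both strands, the other motifs were searched on each, and the interferon-stimulated and STAT cores can share letters. A match describes the sequence only.

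The sets differ in more than these genes. A median of 2082.5, 2429 and 2092.5 genes reached 1 TPM (transcripts per 1e+06, an abundance per transcript length that sums to 1e+06 in each column) in the R9 series without an ending, the R9 series of ending 1 and WT. In 26, 1 and 5 cells, the highest gene alone took at least 10% of the TPM. All 8 general ILC markers and all 9 ILC3 markers were detected in each set, with summed medians of 3864, 9537 and 2461 TPM for the ILC list (ranges 383 to 13955, 326 to 17955 and 83.4 to 14216). Mast cell markers had a summed median of 1349 TPM in R9 cells without an ending (61.1 to 4659) and 0 in the other sets, where 5 of 6, including Tpsb2 and Mcpt4, were listed at 0 throughout. Epithelial markers stood at 741 (0 to 435758), 51.1 (0.75 to 13773) and 7586 TPM (15.5 to 101163), with Cdh1 at 0 in R9 cells without an ending. Myeloid markers had summed medians of 448.5 (39.99 to 3920), 0 (0 to 1874) and 1.49 TPM (0 to 4816), with C1qb and Csf1r at 0 in ending 1. These lists move with the sets, and their part in any proteasome value was not tested.

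R9 cells of ending 1 held the most proteasome genes per cell by median. The number of the 49 genes at 1 TPM or more was 5, 20.5 and 32 (lowest, median, highest) in the R9 series without an ending, 25, 31 and 47 in that of ending 1, and 6, 27 and 41 in WT cells. The ranges overlap, but the lowest cell of ending 1 lay above the median of the other R9 series. Of the 22 WT cells, 8 average 2 or 3 columns, while each R9 cell is 1 column. A gene seen in only 1 joined column can count as detected. This can raise the WT numbers throughout, for genes per cell, shares of cells and genes seen together. Cells with more genes held more proteasome genes. Both counts of a cell come from the same sequencing depth. As a description over cells, Pearson's r was 0.76 (32 cells), 0.86 (35 cells) and 0.79 (22 cells).

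**Figure D1:**
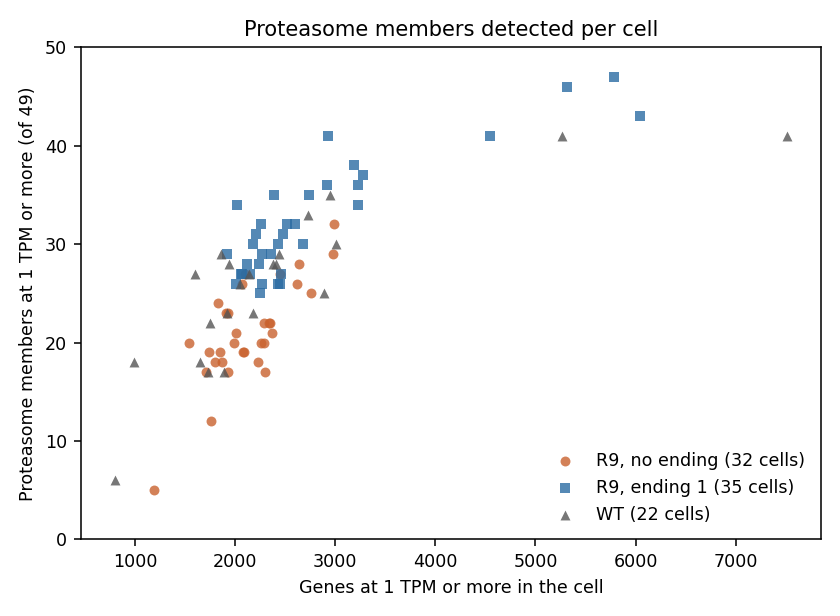
Proteasome genes at 1 TPM or more (y axis, of 49) against all genes at 1 TPM or more (x axis), 1 point per cell, with colour and shape for the set. Cells of ending 1 start at 25 proteasome genes, while the other sets reach down to 5 and 6.

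Detection varied with the role of the gene, and the WT shares again include the joined cells. Psmb8 was the 1 gene seen in all 89 cells. Over the 15 core genes the median share of cells was 53.1% without an ending, 88.6% in ending 1 and 77.3% in WT. Over the 17 regulatory genes it was 46.9%, 71.4% and 50%, and over the 7 assembly genes 18.8%, 42.9% and 27.3%. The germ cell alpha subunit Psma8 was seen in 1 WT cell at 2.87 TPM. Psmb11, the catalytic subunit of thymic epithelium, reached 1 TPM in 0 cells, and Psmc3ip did so in 2 cells of ending 1. A value of 0 in these tables can be a failed estimate and sets no limit on expression.

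**Figure D2:**
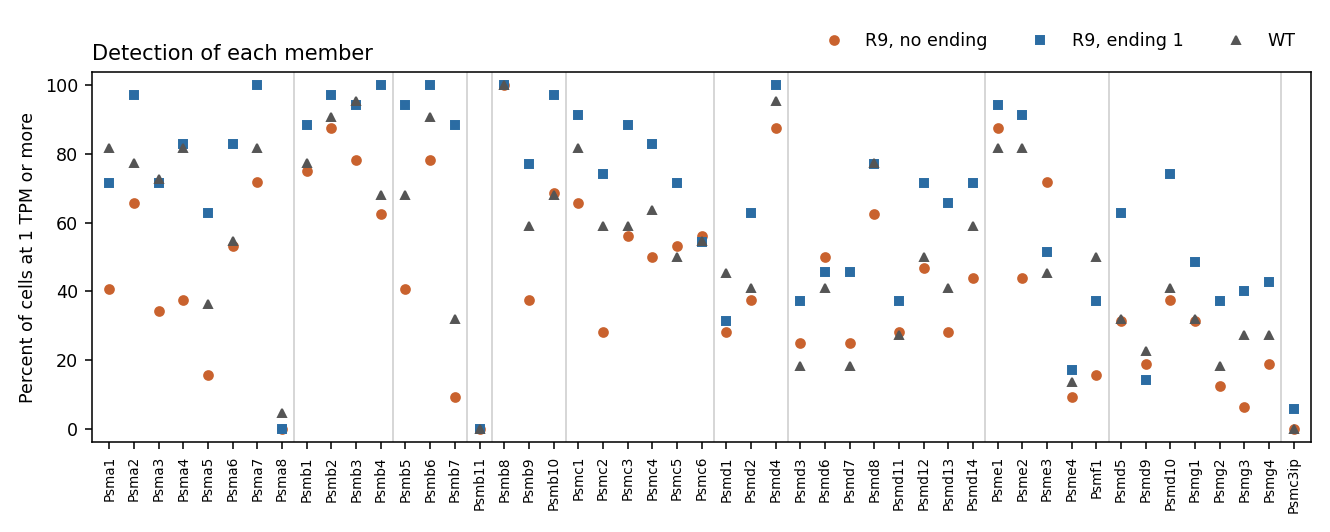
Percent of cells at 1 TPM or more (y axis) for each of the 49 genes (x axis, grouped by role between the grey lines) in the 3 sets. Psmb8 is at 100% in every set, and Psmb7 lies at 9.38%, 88.6% and 31.8%.

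The summed level of the 49 genes was even in 1 set and uneven in the others. It was 1347, 7951 and 114227 TPM (lowest, median, highest) in the R9 series without an ending, 10624, 16944 and 24840 in that of ending 1 and 207, 13035 and 34463 in WT cells. The highest cell stood 84.8-fold, 2.34-fold and 166-fold above the lowest. By mean, the genes took 1.73%, 1.65% and 1.19% of all TPM. The first of these rests on a few cells, since by median the shares were 0.80%, 1.69% and 1.304%.

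Single genes dominated single cells. In R9 cells without an ending, 1 cell held Psmb6 at 113862 TPM, which was 99.7% of its proteasome total and 81.3% of the set's sum for that gene. Other cells held Psmd8 at 79758 TPM, Psmg4 at 65265, Psme2 at 54536 and Psmb2 at 24281. In 7 of 32 cells without an ending, 0 of 35 of ending 1 and 4 of 22 WT cells, 1 gene made up at least 50% of the proteasome total. With each cell's leading gene left out, the medians were 3895, 15152 and 8373 TPM, so ending 1 was still the highest. The WT cell with the fewest genes (793, 6 of them proteasome genes) held Psmb8 at 17463 TPM and Psme2 at 16908.

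**Figure D3:**
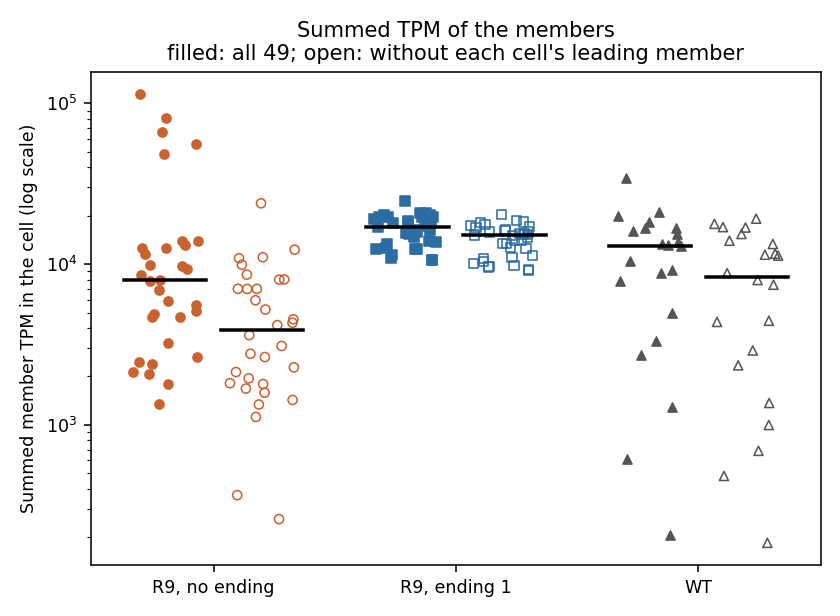
Summed TPM of the 49 genes per cell (y axis, log scale) in the 3 sets, filled for all genes and open without the cell's leading gene, with black lines at the medians. Cells of ending 1 sit between 10624 and 24840 TPM, and the other sets spread over 84.8-fold and 166-fold.

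Within a cell, the parts of the proteasome took shares within 5 percentage points of each other in the 3 sets by median. The core made up 45.6%, 46.7% and 49.6% of the proteasome total, the regulatory part 22.2%, 22.3% and 18.3%, and the immunoproteasome 14.9%, 14.3% and 14.2%. The spread over cells was wider than these differences, with an SD of 21.7, 9.12 and 23.5 percentage points for the core.

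The alpha subunits form the outer rings and the gate. By mean TPM, 6 of the 7 used were lower than WT by 2-fold or more in R9 cells without an ending, where 44.5% of all genes were, and Psma6 was at -0.65 on the scale given below. Without the highest cell of each set, 5 of 7 were lower, where 22.2% of all genes were. Psma1 had a lowest, median and highest value of 0, 0 and 360.7 TPM without an ending, 0, 7.54 and 1413 in ending 1 and 0, 18.9 and 7920 in WT, with means of 52.3, 260.1 and 643.9. It was seen in 40.6%, 71.4% and 81.8% of cells. Its ratio to WT on the scale log2((mean + 1)/(mean + 1)) was -3.60 and -1.305 in the 2 series, which are set against the same WT cells here and throughout. A single WT cell held 55.9% of the WT sum, and without the highest cell of each set the ratios were -2.78 and -0.39. Psma5, another alpha subunit, had medians of 0, 2.85 and 0 TPM (highest 177.3, 806.3 and 1078) and ratios of -3.16 and 0.42. Psma7, the alpha subunit with the highest mean, had medians of 160.9, 806 and 101 TPM. Its mean was 305.8, 840.7 and 907.3, where the WT value holds a cell at 12571 TPM. The ratio of ending 1 went from -0.11 to 1.16 without the highest cells. Cells of all sets overlapped for each of these genes.

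The structural beta subunits, which hold the inner rings together, were among the most widely seen genes. Psmb2 was detected in 87.5%, 97.1% and 90.9% of cells with medians of 291.8, 731 and 199.4 TPM. Its ratio of 1.19 without an ending was -0.29 without the highest cell of each set, and 1 cell gave 68.8% of the sum of that series. Psmb1 had medians of 151, 602.1 and 20.9 TPM and ratios of -0.25 and 1.04. Psmb3, at medians of 258.2, 921.6 and 404.6, led the proteasome total in 5 cells of ending 1. Core subunits did not have equal transcript levels. The core genes compared here include Psmb5, Psmb6 and Psmb7. Their subunits can be replaced, so they need not enter the barrel in the same numbers as the others. Over 14 core genes (without Psma8) the highest mean TPM stood 282-fold above the lowest without an ending, 4.93-fold in ending 1 and 10.4-fold in WT, and 85.4-fold, 5.16-fold and 14.4-fold without the highest cells.

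Among the catalytic subunits, Psmb8 stood above its partner Psmb5 in most cells of every set. Psmb8 had a lowest, median and highest value of 43.8, 644.1 and 6703 TPM without an ending, 8.86, 1023 and 4959 in ending 1 and 2.69, 507.4 and 17463 in WT. The sets overlap almost fully. Psmb5, the chymotrypsin-like subunit that Psmb8 replaces, had 0, 0 and 1327, then 0, 62.3 and 2597, then 0, 12.1 and 1073 TPM. Psmb8 was higher than Psmb5 in 31 of 32 cells (96.9%, exact 95% interval 83.8 to 99.9), 28 of 35 (80%, 63.1 to 91.6) and 20 of 22 (90.9%, 70.8 to 98.9). These intervals, of the Clopper-Pearson kind, cover counting error over cells only. Psmb8 shares 259 exon bases with the antisense gene Gm20496, and strand use in counting is not given in the sources used here.

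The pair of Psmb9 and Psmb6 showed the opposite order. Psmb6, the caspase-like subunit, had 0, 283.7 and 113862 TPM without an ending, 2.30, 612.1 and 2632 in ending 1 and 0, 186.9 and 7388 in WT. Psmb9 had 0, 0 and 1041, then 0, 9.45 and 1775, then 0, 5.37 and 1253 TPM. Psmb9 was the higher of the pair in 5 of 32 cells (15.6%, 5.28 to 32.8), 9 of 35 (25.7%, 12.5 to 43.3) and 2 of 22 (9.09%, 1.12 to 29.2). The mean ratio to WT of Psmb6 without an ending was 2.34, but -0.11 by the mean of log2 values and -0.49 under common-gene scaling, and that of Psmb9 in ending 1 was 1.28, or -0.68 under that scaling. Psmb9 shares 212 exon bases with Tap1 on the other strand, where their reads may not be told apart if counting did not use strand.

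Psmb7, the trypsin-like subunit, differed most between the sets in how often it was seen. It was detected in 3 of 32 cells without an ending (9.38%, 1.98 to 25.02), 31 of 35 of ending 1 (88.6%, 73.3 to 96.8) and 7 of 22 WT cells (31.8%, 13.9 to 54.9). Its highest values were 274.1, 1430 and 1087 TPM, with a median of 277 in ending 1 and 0 in the other sets. The ratios to WT were -2.21 and 2.31, or -1.91 and 3.32 without the highest cells, and the latter series turned to -0.25 when cells were scaled by common genes. Psmb7 shares 253 exon bases with Nek6 on the other strand. Its partner Psmb10 had medians of 68.6, 560.1 and 102.99 TPM, highest values of 898.4, 2048 and 2738, and ratios of -1.33 and 0.74, of which the first was 0.84 against WT columns of ending 1 only. Psmb10 was the higher of the pair in 20 of 32, 20 of 35 and 15 of 22 cells.

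**Figure D4:**
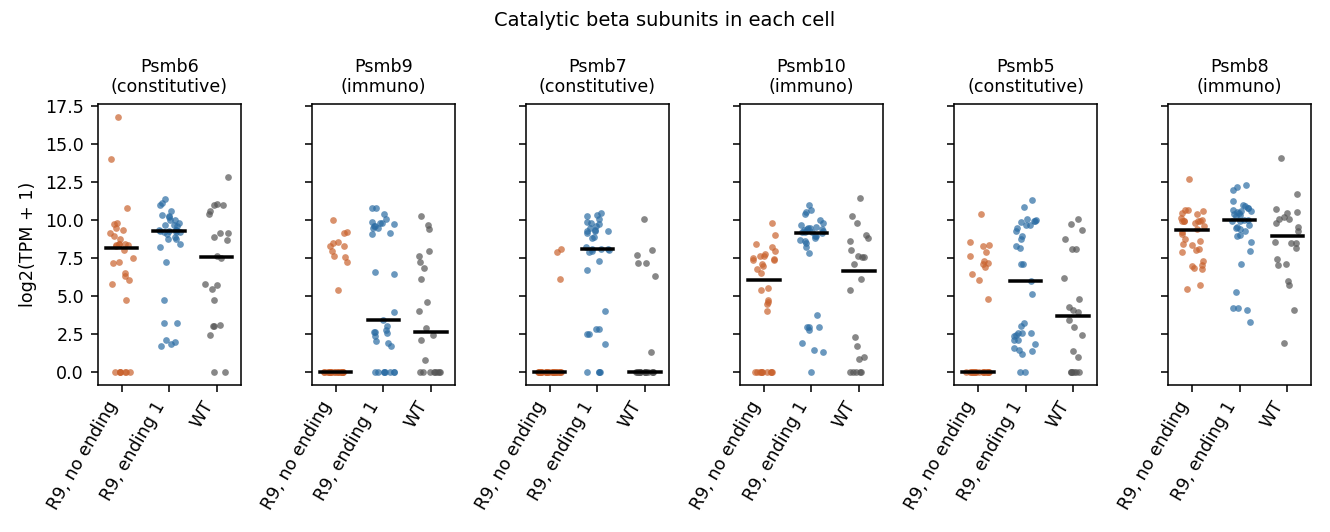
Level as log2(TPM + 1) (y axis) of the 6 catalytic subunit genes in each cell of the 3 sets, each constitutive gene beside its immunoproteasome partner, with black lines at the medians. Psmb8 is above 0 in every cell, while Psmb7 is at 0 in most cells outside ending 1.

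Taken over all 3 pairs, immunoproteasome transcripts made up most of the catalytic total in a typical cell of each set. Their share per cell had a median of 66.8% without an ending (0.21 to 100), 57.3% in ending 1 (0.54 to 87.2) and 63.9% in WT (0.10 to 100), and it exceeded 50% in 29 of 32, 23 of 35 and 17 of 22 cells. By mean TPM the shares were 20.2%, 58.6% and 64.0%. The first became 54.4% without the 1 cell that held Psmb6 at 113862 TPM, and the WT share became 51.7% without its highest cell. All 3 immunoproteasome genes were seen together in 9 of 32 cells (28.1%, 13.7 to 46.7), 27 of 35 (77.1%, 59.9 to 89.6) and 10 of 22 (45.5%, 24.4 to 67.8). All 3 constitutive genes were seen together in 0 of 32 (interval to 10.9%), 29 of 35 (82.9%, 66.4 to 93.4) and 5 of 22 (22.7%, 7.82 to 45.4).

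In the regulatory particle, Psmd4, a ubiquitin receptor of the base, was the most widely seen gene, in 87.5%, 100% and 95.5% of cells with medians of 145.9, 555.7 and 116.4 TPM. Its ratio of 1.08 in ending 1 was -0.70 under common-gene scaling. The scaffold gene Psmd1 was seen in 28.1%, 31.4% and 45.5% of cells with a median of 0 in each set. Of the ATPases that unfold substrates, Psmc3 had medians of 16.96, 273.9 and 5.01 TPM, highest values of 10072, 983.7 and 564, and ratios of 2.99 and 2.59 (2.01 and 3.36 without the highest cells). Psmc5 lay nearer to WT, at -0.09 and 0.85, with means of 96.0, 184.9 and 101.9 TPM.

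Of 8 lid genes, 4 were higher than WT by mean and 2 lower without an ending, where 26.6% and 44.5% of all genes were. In ending 1, 5 were higher and 0 lower, where 48.8% and 20.4% of all genes were. Psmd14 was at -1.64 and 0.28, Psmd11 at -0.92 and -0.04 and Psmd12 at -0.33 and 2.19. Psmd7 had a mean of 24.7, 70.3 and 1.92 TPM and ratios of 3.14 and 4.61. It was seen in 25%, 45.7% and 18.2% of cells, with highest values of 328.1, 711.3 and 24.8 TPM, so most cells of each set were below 1 TPM. Psmd3 had means of 21.1, 110.3 and 9.09 TPM and ratios of 1.13 and 3.46. In the 6 cells without an ending in which no gene held 10% of TPM, the ratios turned to -1.80 for Psmd7 and -3.18 for Psmd3, against WT cells chosen the same way. Psmd6 had means of 90.8, 86.3 and 14.2 TPM and ratios of 2.598 and 2.52, with medians of 4.80, 0 and 0.21. Psmd8 had a ratio of 4.25 without an ending, of which 1 cell gave 96.7% of the sum, and -0.33 without the highest cells. Its medians were 37.3, 65.3 and 11.2 TPM. Psmd13 was at -2.22 and 1.29 with means of 20.96, 249.7 and 101.2 TPM, and it shares 329 exon bases with Sirt3 on the other strand.

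The caps that replace the regulatory particle were uneven. Psme1 and Psme2 encode the 2 chains of PA28, an interferon-inducible cap without ATPase activity, and are near neighbours on chromosome 14 (55578123 to 55581529 and 55587441 to 55591113). Psme1 had medians of 217, 856 and 91.6 TPM and was seen in 87.5%, 94.3% and 81.8% of cells. Psme2 had medians of 0, 871.2 and 291 TPM and was seen in 43.8%, 91.4% and 81.8%. Without an ending its mean of 2270 TPM came largely from cells at 54536 and 13575 TPM, and its ratio of 0.57 was -0.44 without the highest cells. Psme3, the nuclear cap PA28 gamma, had medians of 50.5, 1.13 and 0.39 TPM and was seen in 71.9%, 51.4% and 45.5% of cells. Its ratios were 1.08 and 2.25, and the first was -0.49 without cells where 1 gene held 10% of TPM. Psme4, the PA200 cap, was seen in 9.38%, 17.1% and 13.6% of cells at means of 1.41, 12.4 and 0.50 TPM. The inhibitor gene Psmf1 was seen in 15.6%, 37.1% and 50% of cells at means of 2.77, 64.8 and 30.5 TPM, with ratios of -3.07 and 1.06. The latter was -0.27 by the mean of log2 values and -1.35 under common-gene scaling.

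Assembly factors are chaperones that are not part of the finished particle. Psmg4 had a ratio of 7.21 without an ending, with 98.3% of the sum from 1 cell, and 2.55 without the highest cells. It was seen in 18.8%, 42.9% and 27.3% of cells. Psmg3 was seen in 6.25%, 40% and 27.3% of cells at means of 12.4, 96.8 and 65.4 TPM. Psmd9, at means of 7.10, 25.1 and 12.2 TPM, was seen in 18.8%, 14.3% and 22.7%.

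Set beside all genes, the median proteasome ratio by mean TPM lay within 0.1 of that of all genes in both R9 series. Of 46 proteasome genes whose mean reached 1 TPM in R9 or WT, 9 were higher by 2-fold or more in R9 cells without an ending (19.6%, where 26.6% of all 9956 genes were) and 18 lower (39.1%, where 44.5% of all genes were). Of 47 in ending 1, 22 were higher (46.8%, against 48.8% of all 10395 genes) and 1, Psma1, was lower (2.13%, against 20.4%). The median ratio was -0.75 without an ending and 0.98 in ending 1, where all genes had -0.67 and 0.94. By the mean of log2 values the medians were -0.07 and 0.97, where all genes had -0.07 and 0.21, and 23 of 47 proteasome genes were higher in ending 1, against 17.7% of all genes. Without the highest cell of each gene, 6 of 46 were higher and 17 lower without an ending, against 27.3% and 22.2% of all genes. In ending 1, 29 of 47 were then higher and 0 lower, against 46.8% and 8.91%. The medians were -0.41 and 1.18, where all genes had 0 and 0.83. Scaling each cell by 431 common genes moved the median of all genes to -0.82 and 0.19, and gave 7 higher and 17 lower proteasome genes without an ending (all genes 23.6% and 47.3%) and 11 higher and 12 lower in ending 1 (all genes 36.4% and 34.5%). Of 47 genes, 35 were higher in ending 1 than without an ending (74.5%, against 64.9% of all genes) and 4 lower (8.51%, against 16.1%).

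By part, the core had a median ratio of -1.19 without an ending, with 2 of 14 genes higher and 7 lower, and 0.61 in ending 1, with 5 higher and 1 lower. Relative to all genes this was -0.52 and -0.33. Without the highest cells, 0 core genes were higher and 7 lower without an ending, and 6 were higher and 0 lower in ending 1. For the counts of each part, the background of all genes was 26.6% higher and 44.5% lower without an ending. In ending 1 it was 48.8% and 20.4%. Without the highest cells, the background was 27.3% higher and 22.2% lower without an ending and 46.8% and 8.91% in ending 1. The regulatory part had -0.48 (5 of 17 higher, 5 lower) and 1.06 (9 higher, 0 lower), or 0.19 and 0.12 relative to all genes. Its median without an ending was 0.24 by the mean of log2 values and -1.27 without cells where 1 gene held 10% of TPM. Without the highest cells, 4 regulatory genes were higher and 5 lower without an ending, and 12 were higher and 0 lower in ending 1. The immunoproteasome had -0.79 (0 of 3 higher, Psmb10 lower) and 0.74 (Psmb9 higher, 0 lower), or -0.12 and -0.20 relative to all genes. Its median without an ending was 0.84 against WT columns of ending 1 only, -2.82 under common-gene scaling and -0.12 without the highest cells. Under common-gene scaling the ratios of ending 1 became -0.98 for the core and -1.86 for the immunoproteasome, both turned in sign, and 0.76 for the regulatory part. The alpha subunits had a median of -1.98 without an ending (-1.85 by the mean of log2 values). The lid had 1.74 in ending 1 with 5 of 8 higher, and 0.98 by the mean of log2 values.

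**Figure D5:**
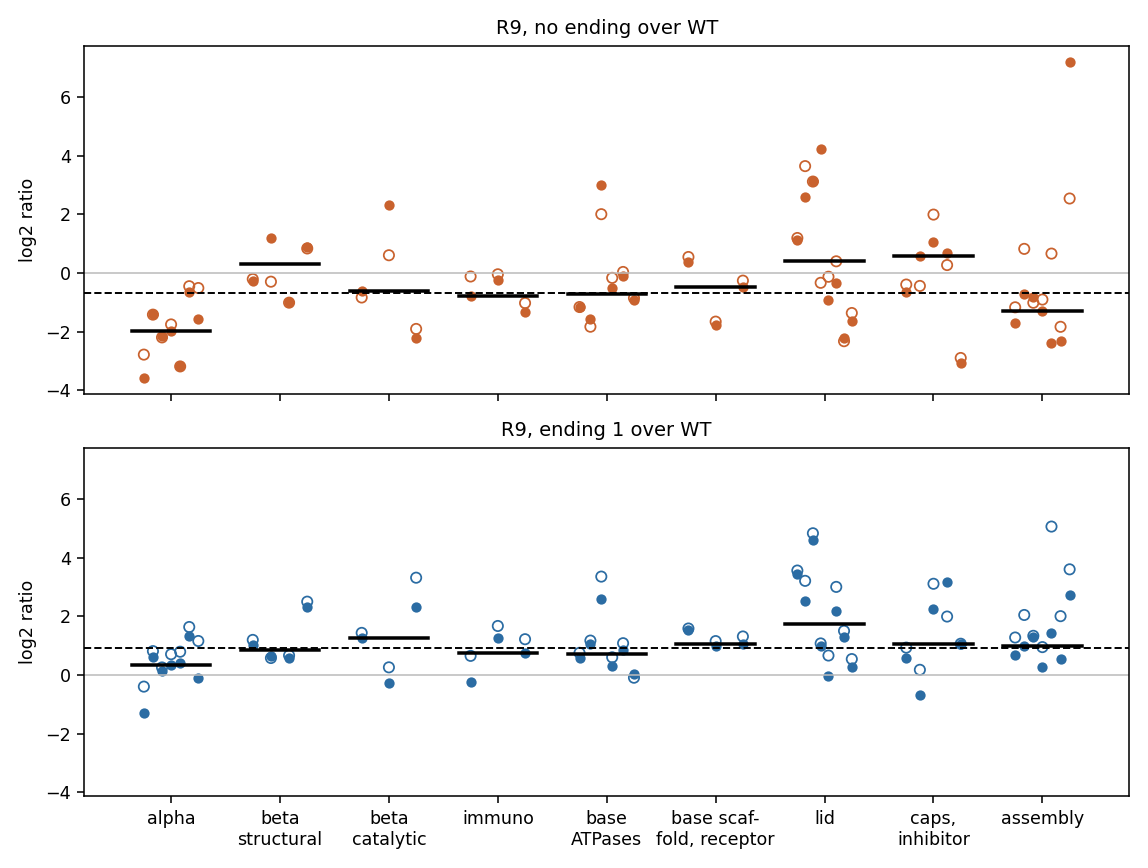
Log2 ratio of mean TPM + 1 over WT (y axis) for each used gene by role (x axis), for R9 cells without an ending (top) and of ending 1 (bottom). Filled points use all cells, open points leave out the highest cell of each set, black lines are medians of the filled points and the dashed line is the median of all genes (-0.67 and 0.94).

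Genes that work beside the proteasome were placed on both sides of WT. The background for the counts in these lists is the share of all genes, 26.6% higher and 44.5% lower without an ending and 48.8% higher and 20.4% lower in ending 1. Of 8 other proteasome proteins, 1 was higher and 6 lower without an ending, and 4 were higher and 3 lower in ending 1. Without the highest cells the lower counts were 3 and 1, where 22.2% and 8.91% of all genes were lower. Shfm1, a small lid subunit outside the Psm naming, had means of 40.7, 607.1 and 2976 TPM and ratios of -6.16 and -2.29 (-6.23 and -0.98 without the highest cells). Pomp, which builds the beta rings, was at -1.93 and 0.08, the ubiquitin receptor gene Adrm1 at -1.45 and 1.35 and Akirin2, a nuclear import factor for proteasomes, at -0.16 and 1.53. Among 5 genes of proteasome gene transcription and processing of its regulator, 3 were higher and 2 lower without an ending, and 2 higher in ending 1. Ngly1, which processes the factor Nfe2l1, had means of 42.8, 64.5 and 1.33 TPM and ratios of 4.23 and 4.81. Nfe2l1 itself had a ratio of 6.18 without an ending, seen in 1 of 32 cells, and -0.48 without the highest cells. The unfoldase gene Vcp was at 2.08 and 2.95 and Nfe2l2 at -2.31 and -0.37.

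Of 7 ubiquitin genes, 0 were higher and 3 lower without an ending and 1 higher in ending 1, with Ubb at -0.94 and -0.19 and Ube2d3 at -0.76 and 0.86. Of 6 unfoldase cofactors and shuttles, 1 was higher and 3 lower, and 4 higher and 1 lower, with Nsfl1c at -2.56 and 1.58 and Ubqln1 at 1.98 and 1.65. Ufd1l was at -2.35 and 1.98, or 1.14 and 5.71 without the highest cells, so its direction without an ending turned. Genes that load the peptides onto MHC class I held no member lower by 2-fold in either series. Of 7 used without an ending 3 were higher and 0 lower, and of 8 in ending 1 5 were higher and 0 lower. Among them B2m, the light chain of class I, had means of 8885, 13530 and 7929 TPM and ratios of 0.16 and 0.77, the loading factor Tapbp 1.63 and 2.56, the chaperone Calr 1.75 and 1.73 and Pdia3 0.23 and 0.40. Of 10 interferon signalling genes, 2 were higher and 4 lower, and 4 higher and 3 lower. Irf9 had means of 10.1, 161.4 and 0.45 TPM and ratios of 2.94 and 6.81, Irf1 was at -2.22 and 0.08 and Jak1 at 0.54 and 1.19. Ifngr1 was at 4.38 and -0.30, and the first was -0.22 without the highest cells.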

How the data were processed

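Single cells were profiled by full-length RNA sequencing. Per the labels' protocols, the kits were Discover-sc WTA Kit V2 for cDNA and TruePrep DNA Library Prep Kit V2 for libraries. The tools StringTie 1.3.4, HISAT2 2.1.0, SAMtools 0.1.19 and bcl2fastq and the build mm10 are named, per the submitters' processing notes. The authors deposited TPM for 23420 gene symbols in 2 tables normalized separately, so each R9 to WT ratio crosses tables, and TPM keeps no depth.

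WT columns that correlated above 0.8 (Pearson, log2 of TPM + 1, genes at 1 TPM or more in both) were averaged (31 columns, 22 cells, 8 of them joined), a limit chosen after seeing the data. A column titled 16 was joined with both columns titled 32. That some joined columns are 1 cell is an assumption. Ratios used a pseudocount of 1 TPM over genes whose mean reached 1 TPM in a set compared. A gene was called at 2-fold or more and detected at 1 TPM. No p-value was computed, since the cells of a set come from unnamed animals. The named genes were the catalytic subunits, caps and Psmf1, the highest and lowest mean of each role, and the 5 largest ratios in each direction in each series where 25% or more of the higher set's cells detected the gene. Other lists gave up to 4 genes with a mean of 10 TPM or more. A few of these are not reported here. Members and lists were chosen with earlier results of these data known. The ratio was also run on simulated data, and no result of that run is given here. How the ratio behaves for genes where 1 cell gives most of a set's sum was not tested. Positions came from the GENCODE annotation of GRCm38 (the build of mm10) and promoter windows from RefSeq. Software was scipy 1.17.1, pandas 2.3.3, matplotlib 3.10.9, numpy 2.4.6 and Python 3.11.15.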

Additional observations from a re-analysis of the deposited data

How the results depend on the processing

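No paired analysis was possible because the result comes from no test. The settings varied were pseudocounts, log means, common-gene scaling, detection limits, WT columns, and gene and cell filters. Of 165 values for counts, part medians and shares under them, 151 moved by less than the spread over cells or by less than 1.5 times. These 151 include medians that turned in sign within that spread. The immunoproteasome median without an ending was -0.79, but 0.84 against WT columns of ending 1 only. By the mean of log2 values, proteasome genes without an ending numbered 5 higher and 10 lower (all genes 9.98% and 9.71%). In ending 1 the lower count was 0 (all genes 3.31%). Common-gene scaling gave 11 higher and 12 lower in ending 1 (all genes 36.4% and 34.5%) and an immunoproteasome median of -1.86. Without the highest cells the lower count of ending 1 was 0 (all genes 8.91%) and the immunoproteasome share without an ending was 49.2%. Without cells where 1 gene holds 10% of TPM (which leaves 6 cells without an ending) the lower count of ending 1 was 2 (all genes 24.1%). Against WT columns of ending 1 only, 15 were higher without an ending (all genes 44.5%) and 3 lower in ending 1 (all genes 16.5%). The median detection in WT was then 33.3%. At 10 TPM the median detection was 42.9% in ending 1 and 36.4% in WT. Turns in sign are listed only for named genes whose log2 ratio was at least 1 in size. Smaller ratios that turned are left out, such as Psmb8 without an ending (-0.79, or 0.35 by the mean of log2 values). Signs turned for Psmb10 without an ending against WT columns of ending 1 (0.84), for Psmb2 (-0.29) and Psmd8 (-0.33) without the highest cells, for Psmb6 by the mean of log2 values (-0.11) and common-gene scaling (-0.49), and without cells where 1 gene holds 10% of TPM for Psmd3 (-3.18), Psmd7 (-1.80), Psmd8 (-1.11) and Psme3 (-0.49). In ending 1 they turned under common-gene scaling for Psmb7 (-0.25), Psmb9 (-0.68), Psmd4 (-0.70) and Psmf1 (-1.35), and for Psmf1 by the mean of log2 values (-0.27). Joining only columns that also share 60% of genes, chosen after seeing the data, left 26 WT cells. It gave 10 higher and 17 lower without an ending (all genes 28.2% and 41.4%). In ending 1, 26 were higher and 1 lower (all genes 52.6% and 19.2%). The cause of these moves was not tested.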

Other observations

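The joined WT columns differed in how far they shared proteasome genes. The columns of cell 29 both detected 41 of the genes, with 3 in 1 column only. The joined cell 32 holds 3 columns. The pair titled 32 both detected 26, with 2 in 1 column only, and a column titled 16 shared 26 with each of them, with 2 and 0 in 1 column only. The columns of cells 31, 15 and 24 both detected 6, 6 and 3, with 24, 23 and 15 in 1 column only, and those of cell 9 both detected 7, with 22 in 1 column only. The 2 columns of such a cell therefore held largely separate sets of proteasome genes, though their r over genes seen in both was 0.84 to 0.99.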
